A study of Mus musculus with 6 samples.

Results

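The genes described here make amino acids, carry them into the cell or load them onto transfer RNA. They are 42 genes chosen by name: 16 enzymes of amino acid synthesis and its folate branch, 8 transporters of the plasma membrane and 18 aminoacyl-tRNA synthetases. All 42 were found among the 34542 genes of the count table, and all 42 passed the filter on low counts that left 15105 genes to test. RNA sequencing was done on 6 libraries of polyadenylated RNA from mouse fetal liver, each made from an equal number of cells. The 3 wild-type (WT) libraries carry the replicate numbers 1 to 3, and the 3 libraries from embryos without the miR-144/451 microRNA locus (KO) carry the numbers 4 to 6. All embryos are of strain C57BL/6J, and no age or treatment is stated. Whether 1 embryo or a pool gave each library is not stated, so the p-values below measure only the spread between these samples.

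Cells that divide and make much protein need a steady supply of amino acids. The enzymes of synthesis build serine, glycine, asparagine, aspartate, alanine, proline and cysteine from intermediates of central metabolism. The transporters bring amino acids into the cell, and the synthetases join amino acids to their tRNAs before the ribosome can use them. Many of these genes are known targets of ATF4, a transcription factor whose translation rises when the initiation factor eIF2 is phosphorylated. In red cell precursors the kinase Eif2ak1 phosphorylates eIF2 when heme is short. Fetal liver is where most red cells of the embryo form, and it also holds hepatocytes, in which several of the synthesis enzymes are abundant.

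The libraries held 24659978 to 44700229 counts. Over the deleted locus, the WT libraries held 51, 47 and 29 counts of Mir144 and the KO libraries 1, 1 and 0. Counts of Mir451 were 323, 446 and 418 in WT and 3, 2 and 4 in KO. Levels below are CPM (counts relative to the scaled library size), and changes are log2 KO minus WT with their standard error. The mean log2 CPM of 20 hepatocyte markers was 7.95, 9.89 and 7.20 in WT and 7.82, 8.49 and 9.58 in KO, so WT replicate 2 and KO replicate 6 stood apart in both groups. The summed level of 10 red cell markers was 21260 to 29300 CPM in WT and 16130 to 19090 CPM in KO, with no overlap, and none of the 10 was at 0. In bulk RNA, fewer cells of a type and less RNA per cell cannot be told apart.

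The deposited intron columns of WT go against their numbers. Over 8014 genes with at least 50 exon and 50 intron counts in every library, the deviations of a library from its group mean were compared between exon and intron columns. Columns of the same number correlated at 0.72, 0.34 and 0.69 in KO replicates 4 to 6, but at 0.42, -0.44 and -0.71 in WT replicates 1 to 3. The exon column of WT replicate 1 was most like the intron column numbered 2 (0.55), that of replicate 2 most like the column numbered 3 (0.79), and that of replicate 3 most like the column numbered 1 (0.72). The columns kept their labels in the tests, so intron levels are given by group only, which an exchange within WT does not alter.

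Of the 42 genes, 1 was lower and 0 were higher in KO at an adjusted p under 0.05 (edgeR's quasi-likelihood test, Benjamini-Hochberg adjustment over all 15105 genes). Over all tested genes 1.45% were called lower and 1.83% higher, so the count of members called is near the background. The gene that fell was Slc1a5, a transporter of glutamine and other neutral amino acids. At an unadjusted p under 0.05, 7 members were lower (8.78% of all tested genes were) and 1 was higher (7.77%). The KO libraries were all below the WT libraries for 7 members, Shmt2, Pycr1, Slc7a5, Slc1a5, Aars, Nars and Sars, and all above them for 2, Got1 and Dars, beside 10.9% and 11.8% of all tested genes. The median change of the 42 was -0.09, beside -0.03 over all tested genes, and 29 of 42 lay below 0 (69.0%, beside 55.2%).

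**Figure D1:**
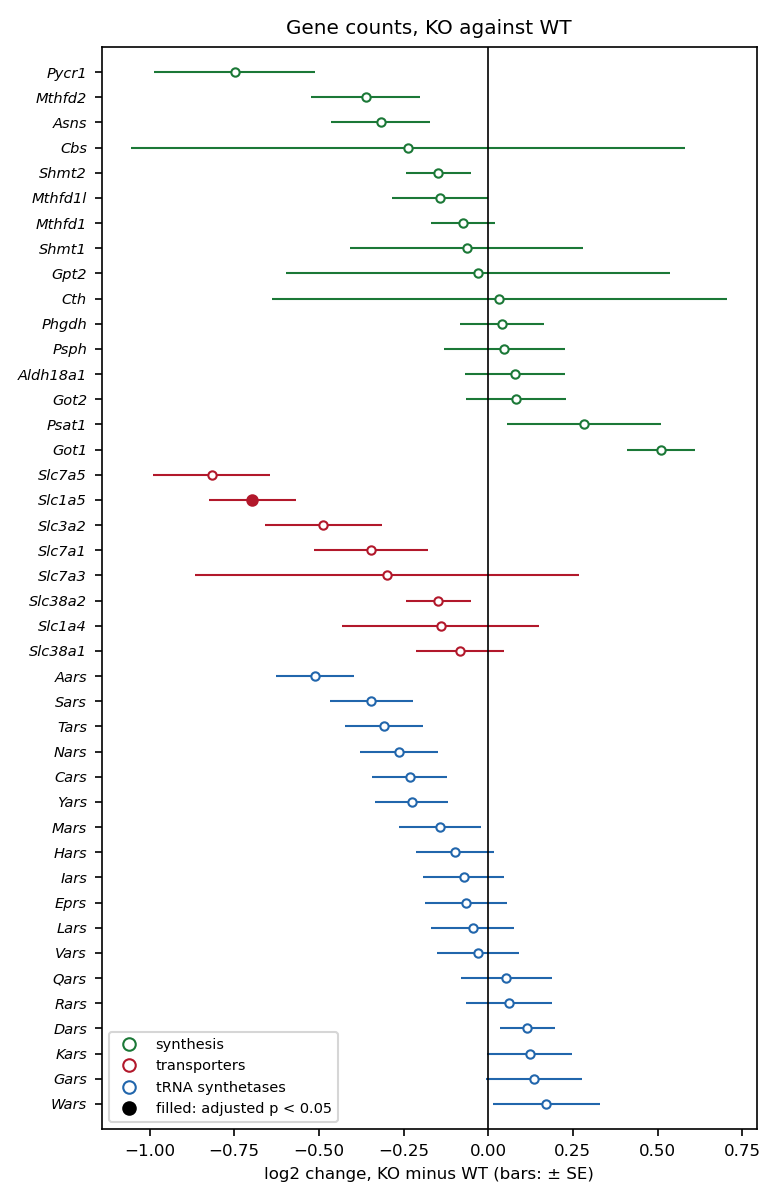
Each point is the log2 change of 1 gene in gene counts, KO minus WT over 3 libraries each, with its standard error as a bar; colours mark the 3 groups of genes, and a filled point marks an adjusted p under 0.05. All 8 transporters lie left of 0, and Slc1a5 alone is filled, whereas synthesis genes run from -0.75 (Pycr1) to 0.51 (Got1).

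The 3 groups are described by their medians, and the difference between them was not tested. The 8 transporters had a median change of -0.32 and all lay below 0. The 16 synthesis genes had a median of -0.05 with 9 below 0, and the 18 synthetases a median of -0.07 with 12 below 0. Within a library, the median log2 level relative to the mean over WT was -0.42, -0.39 and -0.40 for the transporters in KO replicates 4 to 6, beside 0.13, -0.27 and 0.04 in WT replicates 1 to 3. For the synthetases it was 0.01, -0.09 and -0.15 in KO and 0.11, -0.24 and 0.08 in WT, so these groups of libraries overlap.

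**Figure D2:**
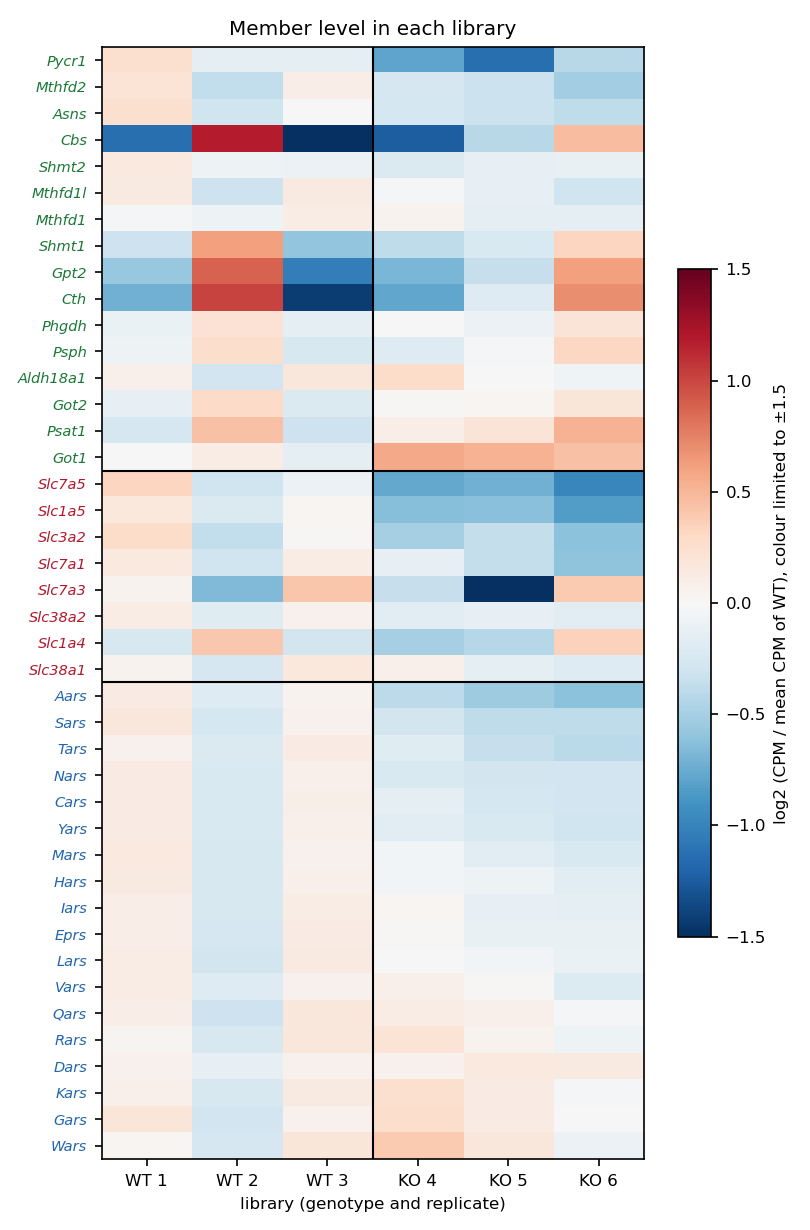
Rows are the 42 genes in 3 blocks (synthesis, transporters, tRNA synthetases), columns the 6 libraries, and colour the log2 ratio of a library's CPM to the mean CPM of WT, limited to 1.5 either way. Slc7a5 and Slc1a5 are blue in all 3 KO libraries, Got1 is red in all 3, and Cbs, Cth, Gpt2 and Shmt1 are red in WT replicate 2 and KO replicate 6.

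Among the transporters, Slc1a5 was the 1 of 8 that passed the test, 7 did not pass, and none was higher. Slc1a5 stood at 638, 492 and 579 CPM in WT replicates 1 to 3 and 365, 370.2 and 318 CPM in KO replicates 4 to 6. All 3 KO libraries lay below the lowest WT library, with a WT mean of 569.5 ± 73.6 CPM and a KO mean of 351 ± 28.6 CPM (SD, n = 3), so the KO mean was 61.7% of WT. The log2 change was -0.70 ± 0.13 (edgeR adjusted p = 0.0430). The call was kept in 6 of 13 other ways of testing and lost in 7, among them leaving out any library other than WT replicate 2 (adjusted p from 0.0720 without KO replicate 6 to 0.178 without WT replicate 3). Its change stayed between -0.79 and -0.61 whichever library was left out.

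Slc7a5 and Slc3a2 encode the light and heavy chain of an exchanger of large neutral amino acids such as leucine. Slc7a5 stood at 434, 283 and 326 CPM in WT replicates 1 to 3 and 204, 211 and 177 CPM in KO replicates 4 to 6. The groups did not overlap, the KO mean was 56.8% of the WT mean, and the change was -0.82 ± 0.17 with an edgeR adjusted p of 0.0628, which misses the threshold. DESeq2 called it lower (adjusted p = 1.22e-04), and limma-voom did not (adjusted p = 0.0634). Slc3a2, the heavy chain, was at 334, 213 and 278 CPM in WT and 195, 215 and 179 CPM in KO. WT replicate 2 fell just under KO replicate 5, so the groups overlapped, and the change was -0.49 ± 0.17 (edgeR adjusted p = 0.225).

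Slc7a1, a carrier of arginine and lysine, was at 186, 136 and 182 CPM in WT and 155, 132 and 111 CPM in KO, and its change was -0.35 ± 0.17 (edgeR adjusted p = 0.378). WT replicate 2 lay among the KO libraries. The sodium-coupled carriers of small neutral amino acids, Slc38a1 and Slc38a2, changed by -0.08 ± 0.13 and -0.15 ± 0.10, with KO means of 94.4% and 90.3% of WT. Slc1a4, a carrier of alanine, serine and cysteine, stood at 24.5, 38.4 and 23.8 CPM in WT and 20.5, 21.5 and 36.6 CPM in KO. It was high in the libraries of high hepatocyte marker level in both groups, and its change was -0.14 ± 0.29. Slc7a3, another carrier of basic amino acids, was near the floor of detection at 0.257 to 0.540 CPM in WT and 0.119 to 0.533 CPM in KO.

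**Figure D3:**
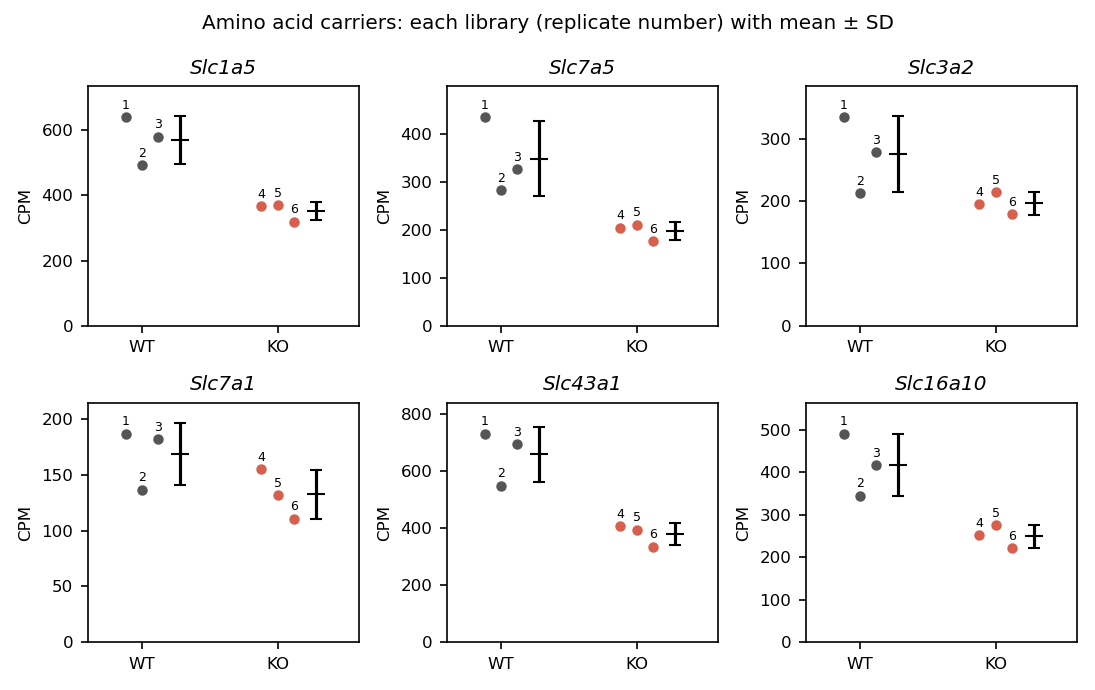
CPM of 6 amino acid transporters in each library, with replicate numbers beside the points and the mean ± SD (n = 3) beside each group. For Slc1a5, Slc7a5, Slc43a1 and Slc16a10 all KO libraries lie below all WT libraries, whereas for Slc3a2 and Slc7a1 WT replicate 2 lies within the range of KO.

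Summed red cell marker levels were lower in KO without overlap between the groups, as were Slc1a5 and Slc7a5. The median change of the 10 red cell markers was -0.50 with 10 of 10 below 0. edgeR called 1 of them lower, Tfrc (adjusted p = 0.0336), beside 1.45% of all tested genes. DESeq2 called 6 of the 10 lower (4.27% of all tested genes). At an unadjusted edgeR p under 0.05, 6 were lower (8.78%), and for 6 all KO libraries lay below WT (10.9%). Their part in the change of the transporters was not tested.

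None of the 16 synthesis enzymes passed edgeR's test in either direction. At an unadjusted p under 0.05, 1 was higher and 1 lower, and DESeq2 and limma-voom each called 1 higher, Got1 (4.39% and 1.79% of all tested genes were called higher). Got1, the cytosolic aspartate aminotransferase, stood at 22.02, 23.6 and 19.9 CPM in WT replicates 1 to 3 and 32.5, 31.3 and 29.6 CPM in KO replicates 4 to 6. Every KO library was above every WT library, with a WT mean of 21.8 ± 1.83 CPM and a KO mean of 31.1 ± 1.48 CPM (SD, n = 3), and the change was 0.51 ± 0.10 with an edgeR adjusted p of 0.0532. DESeq2 gave an adjusted p of 0.00109 and limma-voom 0.0457. Its mitochondrial partner Got2 changed by 0.08 ± 0.15 (edgeR adjusted p = 0.917), with 234, 311 and 218 CPM in WT and 258, 259.7 and 289 CPM in KO.

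The serine pathway runs from Phgdh through Psat1 to Psph, and Shmt1 (cytosolic) and Shmt2 (mitochondrial) then turn serine into glycine. Psat1 was at 178, 287 and 171 CPM in WT and 227, 242 and 304 CPM in KO, with a change of 0.28 ± 0.23 (edgeR adjusted p = 0.660). Its 2 highest values were those of WT replicate 2 and KO replicate 6. Phgdh changed by 0.04 ± 0.12 and Psph by 0.05 ± 0.18, both with overlapping groups. Shmt2 stood at 369.7, 317 and 314 CPM in WT and 288, 306 and 309.6 CPM in KO; the KO values were all lower, but the means differed by under 10% (KO at 90.3% of WT) and the change of -0.15 ± 0.10 was not past the threshold (edgeR adjusted p = 0.551).

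Mthfd2, a mitochondrial folate enzyme that works beside Shmt2, was at 224, 150.2 and 207 CPM in WT and 162, 155 and 135 CPM in KO, a change of -0.36 ± 0.16 (edgeR adjusted p = 0.333). Mthfd1l, the next mitochondrial step, changed by -0.14 ± 0.14, and the cytosolic Mthfd1 by -0.07 ± 0.09. For all 3 the groups overlapped. Asns makes asparagine from aspartate and was the most abundant of the synthesis transcripts. It stood at 531, 364 and 453 CPM in WT replicates 1 to 3 and 375, 360.3 and 346 CPM in KO replicates 4 to 6. The KO libraries lay within 346 to 375 CPM, WT replicate 2 fell among them, and the change was -0.32 ± 0.15 (edgeR adjusted p = 0.352).

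Proline is made by Aldh18a1 and then by a reductase step. Pycr1, the mitochondrial reductase of the last step, had the lowest level of the group at 5.87, 4.48 and 4.53 CPM in WT and 2.85, 2.27 and 3.73 CPM in KO. All KO libraries were lower than all WT libraries, with a change of -0.75 ± 0.24 and an edgeR adjusted p of 0.179. Aldh18a1 changed by 0.08 ± 0.15 with overlapping groups.

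Cbs and Cth, which turn homocysteine into cysteine, and Gpt2, the mitochondrial alanine aminotransferase, followed the hepatocyte marker level library by library. Cbs stood at 11.98, 59.2 and 7.47 CPM in WT replicates 1 to 3 and 11.2, 19.7 and 36.1 CPM in KO replicates 4 to 6. Cth was at 11.7, 39.1 and 7.23 CPM in WT and 11.3, 16.9 and 31.3 CPM in KO, and Gpt2 at 12.3, 33.6 and 8.85 CPM in WT and 11.4, 14.3 and 27.9 CPM in KO. In each of the 3, WT replicate 2 was the highest library and KO replicate 6 the second highest, as for the hepatocyte markers, and the changes of -0.24 ± 0.82, 0.03 ± 0.67 and -0.03 ± 0.57 were smaller than their standard errors. The same order held for Shmt1, at 42.5, 80.9 and 35.2 CPM in WT and 40.8, 45.1 and 66.2 CPM in KO. WT replicate 2 and KO replicate 6 were both the highest of their group in 8 of the 16 synthesis genes, beside 29.1% of all tested genes and 20 of 20 hepatocyte markers.

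**Figure D4:**
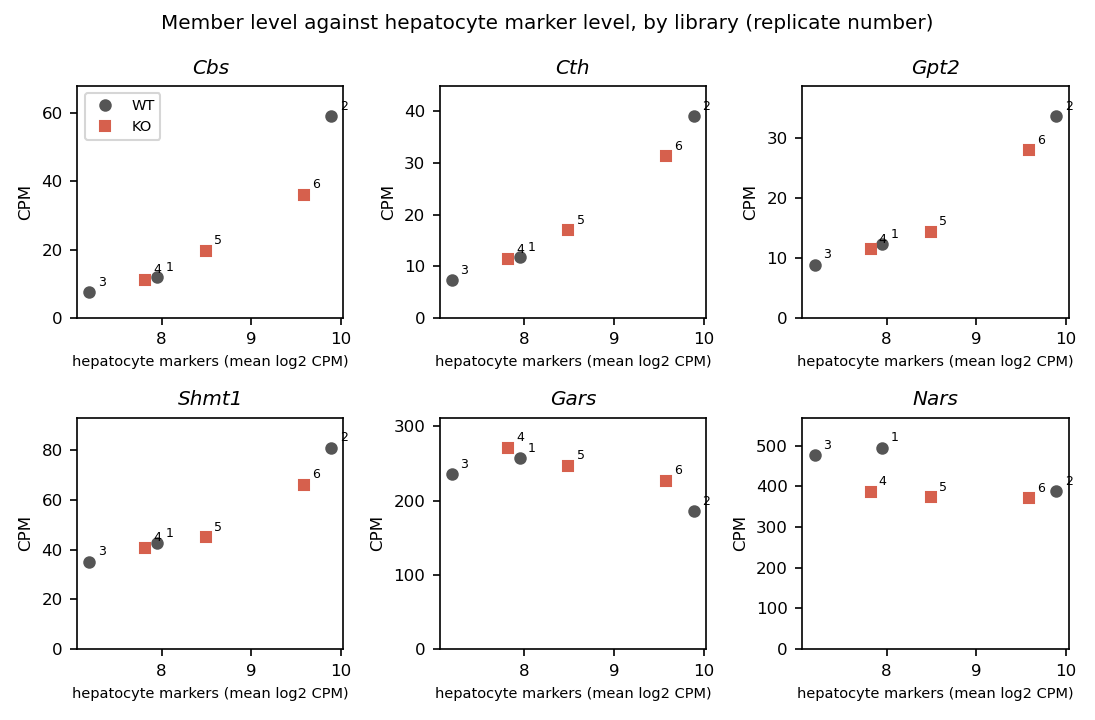
CPM of 6 genes (vertical axis) against the mean log2 CPM of 20 hepatocyte markers (horizontal axis) in each library, numbered by replicate. Cbs, Cth, Gpt2 and Shmt1 are highest in WT replicate 2 and KO replicate 6, whereas the synthetases Gars and Nars are lowest there within their group.

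Of the 18 synthetases, none passed edgeR's test in either direction. At an unadjusted p under 0.05, 3 were lower and 0 higher, DESeq2 called 1 lower (Aars, beside 4.27% of all tested genes) and limma-voom called none. Aars, the alanyl-tRNA synthetase, had the largest change. It stood at 405, 325 and 387 CPM in WT replicates 1 to 3 and 283, 258 and 243 CPM in KO replicates 4 to 6. The groups did not overlap, with a WT mean of 372 ± 42.2 CPM and a KO mean of 261 ± 20.1 CPM (SD, n = 3), and the change was -0.51 ± 0.12 (edgeR adjusted p = 0.0780, DESeq2 6.39e-04). Aars shares 1326 exon bases with Exosc6 on the same strand in the GENCODE annotation, so its count is uncertain by what the counting did with shared bases.

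The synthetases for serine and threonine came next. Sars was at 201, 148 and 186 CPM in WT and 148, 137 and 137 CPM in KO, a change of -0.35 ± 0.12 (edgeR adjusted p = 0.228). Tars was at 159, 129.9 and 165 CPM in WT and 133, 119 and 114 CPM in KO, a change of -0.31 ± 0.11 (edgeR adjusted p = 0.249). For Sars all KO libraries lay under the lowest WT library, KO replicate 4 by less than 1 CPM, and for Tars KO replicate 4 lay above WT replicate 2. Nars, for asparagine, had the highest count level of the synthetases, at 495, 388 and 476 CPM in WT and 387, 373 and 371 CPM in KO, with all KO values below all WT values by a narrow margin and a change of -0.26 ± 0.11 (edgeR adjusted p = 0.323).

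At the other end, Wars (tryptophan) changed by 0.17 ± 0.16, Gars (glycine) by 0.13 ± 0.14 and Kars (lysine) by 0.12 ± 0.12, with edgeR adjusted p of 0.722, 0.774 and 0.761. Wars was at 55.1, 45.3 and 61.3 CPM in WT and 70.7, 60.6 and 50.7 CPM in KO, with overlap. Dars (aspartate) was the 1 synthetase whose KO libraries were all above WT, at 167, 147 and 167 CPM in WT and 168, 178 and 176 CPM in KO, and its change of 0.11 ± 0.08 had an edgeR adjusted p of 0.596. The other 10 synthetases changed by -0.23 (Cars) to 0.06 (Rars), and in all of them the groups overlapped.

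The synthetases shared a pattern over libraries that does not follow genotype. WT replicate 2 was the lowest WT library for 18 of 18 synthetases, 7 of 8 transporters and 6 of 16 synthesis genes, beside 48.4% of all tested genes. WT replicate 2 and KO replicate 6 were both the lowest of their group for 16 of 18 synthetases, beside 32.2% of all tested genes. The pattern is not particular to them: it held for 6 of 6 other genes of cytosolic charging, 9 of 10 red cell markers and 9 of 17 mitochondrial synthetases. WT replicate 2 and KO replicate 6 are the libraries of highest hepatocyte marker level, and the part of cell makeup in the pattern was not tested.

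Counts of members called depended on these libraries. Without WT replicate 2, 11 members were lower and 1 higher, where 6.61% and 3.16% of all tested genes were called. The 11 were Asns, Mthfd2, Slc7a5, Slc3a2, Slc1a5, Aars, Cars, Nars, Sars, Tars and Yars, and the 1 was Got1. Without WT replicate 2 and KO replicate 6 together, 8 were lower (Asns, Mthfd2, Slc7a5, Slc3a2, Slc1a5, Aars, Nars and Sars; 5.56% of all tested genes) and 2 higher (Psat1 and Got1; 3.85%). With a covariate for the hepatocyte marker level, 9 were lower (Mthfd2, Pycr1, Slc7a1, Slc7a5, Slc3a2, Slc1a5, Aars, Sars and Tars; 8.63%) and 2 higher (Got1 and Wars; 8.53%). Without any 1 of the other libraries no member was called, where 0.0782% to 0.645% of all tested genes were. Over the 13 other ways of testing, 13 members were called lower at least once, 3 higher at least once and 26 never. The share of all tested genes called at least once was not counted, so these 3 counts have no background to be read against.

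The size of many changes also moved with this library. Leaving out WT replicate 2 took Slc7a5 to -0.94 (edgeR adjusted p = 0.0170), Slc3a2 to -0.64 (0.0252), Aars to -0.60 (0.0142) and Got1 to 0.57 (0.0219). Asns went to -0.45 (edgeR adjusted p = 0.0354) and Psat1 to 0.57 (0.0562). The enzymes that followed the hepatocyte marker level moved furthest without passing the test: Cbs went from -0.24 to 1.19, Cth from 0.03 to 1.06, Gpt2 from -0.03 to 0.76 and Shmt1 from -0.06 to 0.38. The synthesis median turned from -0.05 to 0.18 and the transporter median moved from -0.32 to -0.51.

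Per kilobase of annotated exon, the members differed widely in level. In WT, Asns was highest at 164 ± 30.4 CPM per kb (SD, n = 3), followed by Slc1a5 at 136 ± 17.6, Shmt2 at 107 ± 10.1 and Nars at 104 ± 13.1. Hars (96.5 ± 12.9) and Slc7a5 (93.7 ± 21.02) came next. Shmt2 and Nars differed by less than the SD of either, as did Hars and Slc7a5. Transcripts of Cbs (3.50 ± 3.83), Gpt2 (3.23 ± 2.37), Pycr1 (1.26 ± 0.201) and Slc7a3 (0.107 ± 0.0376) were the scarcest. Among the synthetases the level per kb ran from 15.6 ± 2.33 for Wars to 104 ± 13.1 for Nars. Exon lengths are those of all annotated exons of a gene joined, so genes with long unused exons come out too low.

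Intron counts, which stand for unspliced RNA, were tested for 41 of the 42 genes (Slc7a3 had too few). edgeR called none of the 41 (smallest adjusted p 0.163), beside 0.483% of 11803 tested genes called lower and 0.237% higher. At an unadjusted p under 0.05, 9 members were lower (5.45% of all genes) and 0 higher (5.39%), and DESeq2 called 5 lower (Asns, Mthfd1l, Slc7a5, Slc1a5 and Aars), beside 1.84%. Of the 41, 30 lay below 0 with a median of -0.25, beside 47.0% of all genes and a median of 0.02. KO columns were all below WT for 11 members and all above for 0, beside 7.57% and 9.92% of all genes.

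The introns of all 7 tested transporters lay below 0, with a median of -0.56. Slc1a5 introns were at 1306 ± 213 CPM in WT and 752 ± 148 CPM in KO (SD, n = 3), a change of -0.80 ± 0.20 beside -0.70 in gene counts. Slc7a5 introns changed by -0.71 ± 0.20 and those of Slc3a2 by -0.66 ± 0.20, with edgeR adjusted p of 0.222 and 0.268. Aars introns changed by -0.62 ± 0.16 and those of Asns by -0.54 ± 0.15 (0.197 and 0.221). In each of these 5 genes the KO intron columns were all below the WT columns, and the changes in gene counts were -0.70, -0.82, -0.49, -0.51 and -0.32 in the order named. Of these 5 genes Slc1a5 alone passed the test, in gene counts.

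In another 4 genes the change of introns lay below the change of gene counts. The direction is not particular to them. The change in exon counts less that in introns was above 0 in 27 of 41 members. It was below 0 in 34.1% of members, beside 60.2% of all genes tested for it. Gars introns were at 211 ± 42.7 CPM in WT and 139 ± 33.2 CPM in KO, a change of -0.61 ± 0.22, while its gene counts changed by 0.13 ± 0.14. Psat1 introns changed by -0.31 ± 0.22 against 0.28 ± 0.23 in gene counts, and Got1 introns by -0.08 ± 0.20 against 0.51 ± 0.10. Mthfd1l introns changed by -0.67 ± 0.19 against -0.14 ± 0.14. These 4 were singled out after their values were seen.

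**Figure D5:**
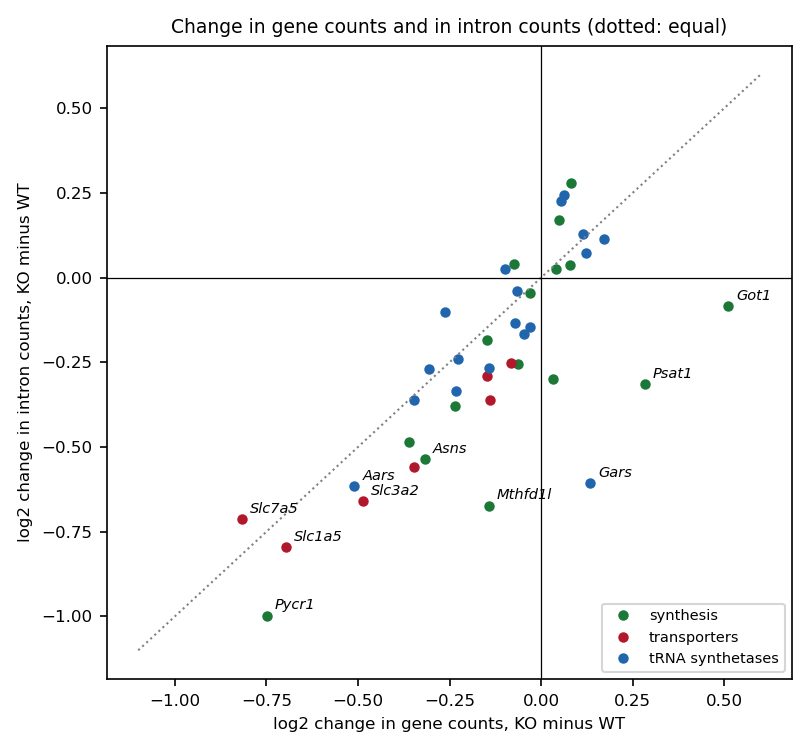
Each point is 1 of 41 genes, with its log2 change in gene counts on the horizontal axis and in intron counts on the vertical axis; the dotted line marks equal change. Slc7a5, Slc1a5, Slc3a2 and Aars lie near the line at the lower left, and Gars, Psat1, Got1 and Mthfd1l lie below it, with introns lower than gene counts.

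Exonic and intronic changes were compared directly in 1 model with a term per library. With columns as labelled, edgeR called 0 of 41 members and 0% of 11100 genes, and DESeq2 called 0 members, beside 0.351% of all genes. At an unadjusted edgeR p under 0.05, 2 members were higher, Got1 (0.59 ± 0.24) and Gars (0.76 ± 0.28), and 0 were lower. Over all genes 1.67% were higher and 1.5% lower. That model relies on the exon and intron columns of a library belonging together, which the WT columns go against. With each WT exon column set beside the intron column it was most like, a choice made after the data were seen, the model called 0.577% of all genes and again 0 of 41 members. The estimates hardly moved while the errors shrank. A pairing chosen for likeness favours smaller errors by itself, so the adjusted p-values that follow may be too small. Gars was 0.76 ± 0.15 (edgeR adjusted p = 0.0526), Psat1 0.63 ± 0.13 (0.0722), Mthfd1l 0.54 ± 0.13 (0.115) and Got1 0.59 ± 0.16 (0.168). Slc1a5 was 0.11 ± 0.14 and Slc7a5 -0.07 ± 0.18, so that no difference between their exonic and intronic change was detectable.

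Other genes of amino acid supply were followed in lists chosen with earlier results of these data known, so their counts are a description. Each count below is to be read beside the 1.45% of all tested genes that edgeR called lower and the 1.83% called higher, or the 8.78% and 7.77% before adjustment. The 24 tested carriers outside the 8 had a median change of -0.03, beside -0.03 over all tested genes. Of the 24, 13 lay below 0 and 11 above (54.2% below, beside 55.2%). Among them, 1 was called lower and 0 were called higher. That 1 was Slc43a1, a carrier of large neutral amino acids, at 730.5, 549 and 695 CPM in WT and 408, 395 and 335 CPM in KO, a change of -0.79 ± 0.14 (edgeR adjusted p = 0.0421, 0.00862 to 0.174 with single libraries left out). The groups did not overlap. Slc16a10, a carrier of aromatic amino acids chosen after its values were seen, was at 490.2, 345 and 416 CPM in WT and 251, 275 and 221 CPM in KO, a change of -0.74 ± 0.15 (edgeR adjusted p = 0.0599).

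The 17 mitochondrial synthetases had 0 called by edgeR and limma-voom and 1 higher by DESeq2, with 2 higher and 0 lower before adjustment. Their median was 0.13 with 3 of 17 below 0, beside -0.03 and 55.2% over all tested genes; the difference from the cytosolic list was not tested. Iars2 changed by 0.22 ± 0.10 and Lars2 by 0.16 ± 0.21. Of 6 other genes of cytosolic charging, 0 were called by the 3 tools and 0 passed unadjusted; Farsb changed by -0.15 ± 0.12 and Farsa by 0.09 ± 0.12.

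In the folate and methionine cycle, 0 of 16 genes were called by the 3 tools, and before adjustment 1 was higher and 2 lower. Mat2a, which makes S-adenosylmethionine, changed by -0.22 ± 0.23 and Tyms, which makes thymidylate, by -0.20 ± 0.13. In the list of glutamate, proline and urea cycle genes, 0 of 17 were called by edgeR and limma-voom and 1 higher by DESeq2, with 1 higher and 1 lower unadjusted. Glud1 (glutamate dehydrogenase) changed by 0.07 ± 0.58 and Glul (glutamine synthetase) by 0.24 ± 0.14; Glud1 ran from 200.4 to 810.2 CPM within WT, with WT replicate 2 the highest.

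Of 16 genes of the ATF4 axis, a list also chosen with earlier results known, 4 were lower and 0 higher, beside 1.45% and 1.83% of all tested genes. The median change of the 16 was -0.155, beside -0.03 over all tested genes. Of the 16, 12 lay below 0 and 4 above, from -2.86 (Chac1) to 0.56 (Atf3, not called). Atf4 itself was at 488, 393 and 467 CPM in WT and 308, 299 and 268 CPM in KO, with no overlap and a change of -0.62 ± 0.12 (edgeR adjusted p = 0.0436). Chac1, which breaks down glutathione, was at 3.62, 4.79 and 5.07 CPM in WT and 0.575, 0.525 and 0.751 CPM in KO, a change of -2.86 ± 0.24 (edgeR adjusted p = 0.00830). Trib3, a pseudokinase that inhibits ATF4, changed by -1.68 ± 0.28 and Ppp1r15a, which directs the phosphatase that resets eIF2, by -1.16 ± 0.13, with edgeR adjusted p of 0.0337 and 0.0137. With single libraries left out, the adjusted p ranged up to 0.189 for Atf4, 0.0673 for Chac1, 0.145 for Trib3 and 0.0730 for Ppp1r15a. Chac1 fell by 2.86 on the log2 scale while no synthesis gene or synthetase was called, and the difference between these lists was not tested.

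ATF4 and C/EBP proteins bind a composite element whose core reads TGATGNAA (N is any base). It was searched on both strands of RefSeq promoter windows of build GRCm38.p6, from 250 bases before to 50 after a gene's start. Windows were at hand for 30 of the 42 genes. Slc1a5 and Slc7a5, the transporters that fell most, had no window and were not searched. The core was found in 9 of the 30 (30.0%): Asns, Pycr1, Got1, Slc1a4, Aars, Gars, Iars, Tars and Yars. Over all genes with a window, 1219 of 27025 (4.51%) held it. Windows of 30 bases around the core are shown for some of the members named above as most changed and for 2 called genes of the ATF4 axis. Each reads 5′ to 3′ on the strand that carries TGATG, with the core in capitals.
Asns, chr6:7693214-7693243, minus strand: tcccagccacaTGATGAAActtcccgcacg
Pycr1, chr11:120643833-120643862, minus strand: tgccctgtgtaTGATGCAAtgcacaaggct
Got1, chr19:43524689-43524718, plus strand: ggaggcttgtaTGATGCAAccaatgcaatg
Gars, chr6:55037960-55037989, minus strand: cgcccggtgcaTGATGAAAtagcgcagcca
Tars, chr15:11399655-11399684, plus strand: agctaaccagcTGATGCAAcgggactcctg
Chac1, chr2:119351038-119351067, minus strand: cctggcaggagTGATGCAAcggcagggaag
Trib3, chr2:152344028-152344057, plus strand: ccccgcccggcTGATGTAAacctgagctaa

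By group, the core was in 5 of 11 synthetases, 3 of 15 synthesis genes and 1 of 4 transporters with a window. The 9 genes with the core had a median change of -0.23, from -0.75 (Pycr1) to 0.51 (Got1), with 7 of 9 below 0. The 21 without it had a median of -0.07 with 13 below 0. Slc1a5 and Slc7a5 are in neither set. In intron counts 9 of 9 with the core lay below 0 (median -0.36), and 13 of 21 without it (median -0.18). Got1 and Pycr1, the extremes of the 9, carry the same 8 letters, Pycr1 on the gene's strand and Got1 on the opposite strand. Their gene counts changed by 0.51 (Got1) and -0.75 (Pycr1), neither past the threshold. Whether change goes with the core was not tested. A match describes letters in a window and is not a site of binding.

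The deleted locus makes 3 mature microRNAs with different seeds. Their RefSeq sequences (GRCm38.p6, chromosome 11, plus strand) are shown because the seed, bases 2 to 8 and here in capitals, is the part that pairs with a target transcript.
miR-451a: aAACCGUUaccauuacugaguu
miR-144-3p: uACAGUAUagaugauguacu
miR-144-5p: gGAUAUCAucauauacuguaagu

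Matches of 7 or 8 bases were looked for in the longest 3′ untranslated region annotated for each gene, for 42 of 42 members and 11998 tested genes. No member held a miR-451a match, beside 2.29% of all genes searched. A miR-144-3p match was in 4 of 42 (9.52%, beside 13.7%), and a miR-144-5p match in 1 (2.38%, beside 6.42%). The 4 were Slc38a1, Slc38a2, Aars and Wars, and the 1 was Slc7a1. Of these sites, 3 are shown in GRCm38, on the gene's strand, with the match in capitals. The coordinates are those of the match alone, without the bases printed around it.
Slc38a1, chr15:96574162-96574169: tcttgtaacacagaATACTGTAgattcct
Aars, chr8:111055978-111055984: gtctggaagcagagATACTGTctgcttat
Slc7a1, chr5:148329291-148329297: ttctgcctgtcatcTGATATCccctctgc

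None of the 5 genes with a match passed the test in gene counts. Their changes were -0.08 (Slc38a1), -0.15 (Slc38a2), -0.51 (Aars), 0.17 (Wars) and -0.35 (Slc7a1), so 4 of 5 were below 0. Slc1a5, the 1 member that was called, held no match for any of the 3 microRNAs.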

How the data were processed

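A table of raw gene counts (34542 symbols) and one of exon and intron counts (15543 symbols) were deposited by the authors. Exon counts equal gene counts for all 15543. STAR and HTSeq, and the builds NCBIM37 and mm10, are named in the submitters' processing notes. How introns were defined and whether strand was used is not given in the sources used here. The gene table leaves out globin and mitochondrial genes, per its name, and holds 0 symbols that begin with Hba, Hbb or mt-. With columns paired as labelled, intron counts were 16.9% to 23.4% of exon plus intron counts in WT and 17.0% to 21.3% in KO. The WT range is uncertain, because the WT intron columns go against their numbers.

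KO was tested against WT on TMM-scaled counts with edgeR 4.0.16 (quasi-likelihood F test, two-sided, filterByExpr with minimum count 10 and total 15, Benjamini-Hochberg over all genes tested) in R 4.3.3. DESeq2 1.42.0, limma-voom 3.58.1, other scalings and filters, the exon table, a hepatocyte covariate and left-out libraries were alternatives. Standard errors come from the F statistic. Pairs of libraries of 1 group differed by a chi-square per degree of freedom of 16.7 to 157, so each was kept as 1 replicate. Exonic and intronic change were compared by an interaction over 12 columns. Reads carry no molecular identifiers.

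Members and lists were chosen with earlier results of these data known. The rule for named genes takes, in each of the 3 groups, called members, the 3 largest increases and decreases and the highest CPM. From each other list it takes up to 4 called genes, or the 2 of highest CPM where none was called. Other genes are named as examples. Annotation is GENCODE M21 (GRCm38), whose build may differ from that of the counts, and sequences are from RefSeq (GRCm38.p6) or, for seed matches, that annotation's genome. The search for seed matches and for the response element core has no test. Of the marker lists, 20 of 20 hepatocyte, 10 of 12 red cell, 11 of 12 macrophage, 10 of 10 neutrophil and 8 of 8 megakaryocyte markers were in the table. A promoter window and a gene are not reported here.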

Additional observations from a re-analysis of the deposited data

How the results depend on the processing

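No paired analysis was possible because the WT libraries carry the numbers 1 to 3 and the KO libraries 4 to 6, so no number is shared. In gene counts, 1 member was called lower and 0 higher. DESeq2 called 3 lower and 1 higher, limma-voom 1 higher, the hepatocyte covariate 9 lower and 2 higher, and the pair of libraries of highest hepatocyte marker level left out 8 lower and 2 higher. No filter and the exon table each left 0 lower (Slc1a5 adjusted p = 0.0611 and 0.0516). With single libraries left out, 0 to 11 were lower and 0 to 1 higher; the 11 and the 1 come without WT replicate 2. In intron counts, where 0 were called, DESeq2 called 5 lower, beside 1.84% of all genes, and 0 to 1 was lower with a single column left out. The 1, Slc3a2, came without the column labelled WT replicate 3, where 1.01% of all genes were called lower. That column is most like the exon column of WT replicate 2. Exonic against intronic change gave 0 calls in all 13 alternatives. With single libraries left out, the synthesis median ran from -0.15 to 0.18 and the transporter median from -0.51 to -0.26. The median over all members stayed between -0.18 and -0.05 and that of the synthetases between -0.18 and -0.01. The change of Got2 ran from -0.016, without WT replicate 3, to 0.253, without WT replicate 2, beside 0.08 in all libraries. With 8mer sites alone, miR-144-3p matches fell from 4 members to 1 and the miR-144-5p match from 1 to 0. Left-out libraries leave 2 in 1 group, and that pair is assumed to vary like the other group.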

Other observations

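Oat, Slc7a11, Eif2ak1 and Slc25a38 were chosen after their values were seen. Oat links ornithine to proline and glutamate. Oat stood at 130.4, 103 and 134 CPM in WT and 175, 166 and 149 CPM in KO, with all KO libraries above WT, and its change of 0.42 ± 0.13 was not past the threshold (edgeR adjusted p = 0.158). Slc7a11, the cystine carrier, was scarce at 1.95, 0.799 and 2.20 CPM in WT and 0.596, 0.429 and 0.533 CPM in KO, with no overlap and a change of -1.65 ± 0.42 (edgeR adjusted p = 0.103). Eif2ak1, the heme-regulated kinase of eIF2, was at 832, 575 and 699.6 CPM in WT and 491, 575 and 503 CPM in KO; WT replicate 2 and KO replicate 5 were level, and the change was -0.42 ± 0.16 (edgeR adjusted p = 0.244). Slc25a38, a mitochondrial glycine carrier needed for heme synthesis, was at 243, 192 and 229 CPM in WT and 182, 179.8 and 160.3 CPM in KO, with all KO libraries lower and a change of -0.35 ± 0.11 (edgeR adjusted p = 0.179). Its introns changed by 0.00 ± 0.13.

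The levels of other cell types' markers overlapped between the groups. Summed macrophage markers were 314.8 to 769.6 CPM in WT and 365.2 to 550.1 CPM in KO, with 0 of 11 called by edgeR or DESeq2 and 0 passing unadjusted. Neutrophil markers were 2513 to 4398 CPM in WT and 1592 to 3366 CPM in KO, with a median change of -0.60 and 0 of 10 called by edgeR or DESeq2. Megakaryocyte markers were 217.1 to 420.6 CPM in WT and 224.5 to 367.8 CPM in KO, with 0 of 8 called by edgeR or DESeq2. None of the 20 hepatocyte markers was called by edgeR, DESeq2 or limma-voom, and 0 passed unadjusted. Summed, they were 9467 to 60540 CPM in WT and 13880 to 49310 CPM in KO.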
